A study of Homo sapiens with 2 samples.

Results

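Wnt target and feedback genes are transcripts that rise when Wnt signaling is active and whose products, in most cases, act back on the pathway. The 10 genes chosen by name for this role were DKK1, NOTUM, LGR5, RNF43, ZNRF3, AXIN2, NKD1, LEF1, TCF7 and SP5. They were chosen with earlier results of these data known, so their comparison with all genes is a description only. Every probe set that the platform annotation gives to one of them was used, which yielded 17 probe sets for 9 of the 10 genes, out of 54675 probe sets and 19775 genes on the array. TCF7 was not analysed here, since no probe set carried its name in the annotation used. HepG2 cells, a human hepatocellular carcinoma line, were exposed for 18 h to an ethanolic extract of Padma 28, a polyherbal Indo-Tibetan preparation, at 218 μg/ml, or to 0.9% ethanol as the solvent control (EtOH). Cells from 3 cultures per treatment were pooled and hybridised to 1 array each. How far single cultures vary can therefore not be read from the arrays, and their differences could not be tested. By qPCR in independent experiments, the paper reported DKK1 and LGR5 as lower with the extract, by larger folds than on its arrays. Those qPCR measurements were not part of the data used here. HepG2 is a single tumour line and stands for no other hepatic cell.

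In the canonical Wnt pathway, secreted ligands bind Frizzled and LRP receptors on the cell surface, which stops a cytoplasmic destruction complex from marking β-catenin for degradation. β-catenin then enters the nucleus and, with transcription factors of the TCF/LEF family, switches on target genes, several of which encode inhibitors of the same pathway. In the liver, the pathway is known for setting the zonation of hepatocytes around the central vein. HepG2 cells carry a β-catenin allele with an internal deletion that removes the sites at which the destruction complex phosphorylates the protein, and the pathway is known to be active in them without added ligand.

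The values are log2 expression values computed by the authors, and each difference is the Padma 28 value minus the EtOH value. For genes with several probe sets the brightest one, by the mean of both arrays, stands for the gene. A probe set counts as above background from 2 log2 units over the most frequent value of its array, a limit of 4.35 for Padma 28 and 4.25 for EtOH. Medians over all probe sets were 3.08 with Padma 28 and 3.13 with EtOH, and 18 spike-in probe sets ranged from -0.15 to 0.10 in difference. The gap between 3' and 5' probe sets of GAPDH, a sign of RNA integrity, was 0.04 with Padma 28 and 0.08 with EtOH, and that of ACTB was 1.13 on both arrays. All 8 measured markers of the hepatocyte lineage, among them albumin, α-fetoprotein and transferrin, lay between 12.84 and 16.52 with Padma 28 and between 13.28 and 16.62 with EtOH. Their differences ranged from -0.55 to -0.05. Above background were 2 of 6 fibroblast markers (COL1A1 and PDGFRB), 1 of 3 leukocyte markers (LYZ) and 1 of 4 endothelial markers (PECAM1), whereas the leukocyte marker PTPRC and the endothelial marker CDH5 were not. PDGFRB differed by -0.62, COL1A1 by -0.03, LYZ by -0.14 and PECAM1 by 0.32, and the part of these markers in the results was not tested. In such bulk RNA, fewer cells with a transcript and less of it per cell cannot be told apart.

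DKK1 and LGR5 were more than 2-fold lower with Padma 28 than in the solvent control, and none of the measured genes was more than 2-fold higher. Of all genes on the array, 0.384% were more than 2-fold lower and 0.875% more than 2-fold higher. The other 7 genes stayed within 2-fold. NKD1, RNF43, ZNRF3 and SP5 lay between -0.97 and -0.86, close to the 2-fold line, and AXIN2 and NOTUM were nearer to 0. LEF1 was below background. Of the 8 genes above background, 8 had a negative difference, as did 41.9% of the 10361 genes above background. With LEF1 all 9 measured genes were below 0, as were 67.4% of all genes and 95.5% of the 9414 genes below background on both arrays. The median difference of the 9 genes was -0.92, against -0.02 over all genes. That of the 8 genes above background on both arrays was -0.94, against 0.06 over all genes above background, of which the middle part (percentiles 25 to 75) ran from -0.10 to 0.25. More than 1.5-fold lower were 6 of the 9 genes, a limit chosen after the data were seen, as were 1.56% of all genes, and none was more than 1.5-fold higher, against 3.61% of all genes. All 17 probe sets had a negative difference, 4 of them below background on both arrays. Of the 13 above background, 13 were below 0 and 4 more than 2-fold lower, against 47.7% and 0.982% of all probe sets above background.

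**Figure D1:**
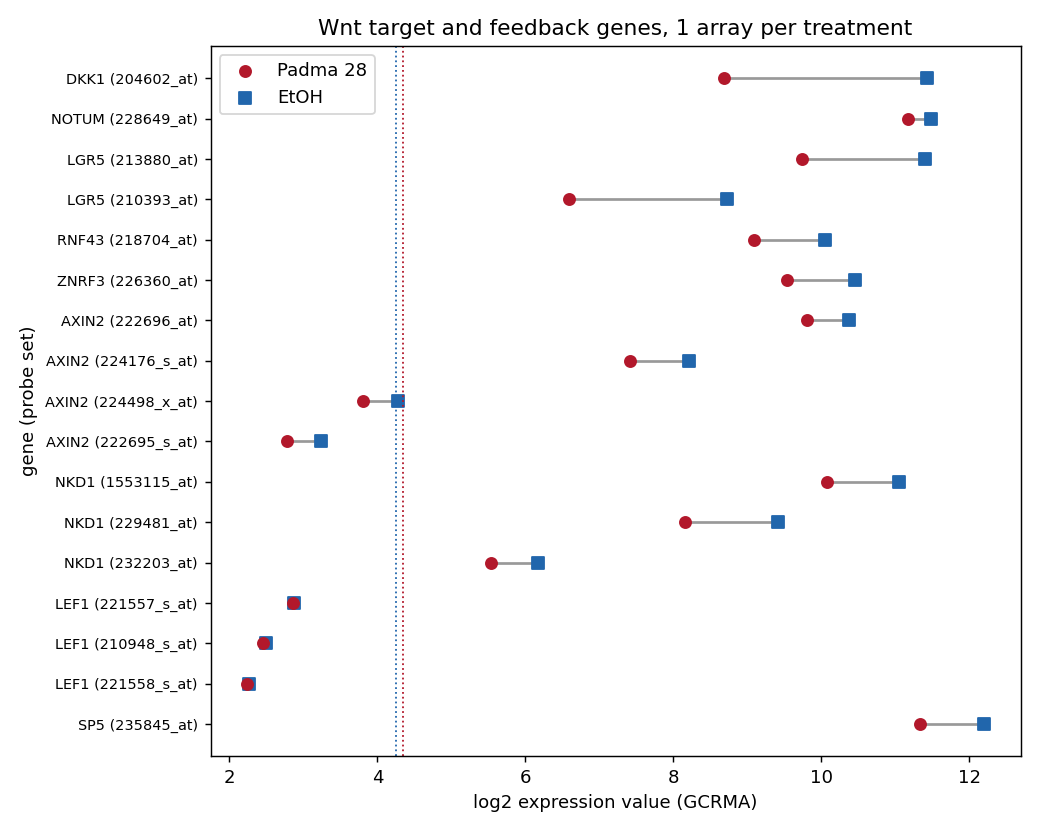
Log2 expression value (horizontal axis) of each of the 17 probe sets of the Wnt target and feedback genes (rows) on the Padma 28 array (red circles) and on the EtOH array (blue squares), with 1 array per treatment and a dotted line at the background limit of each array. The grey bar is the difference between the arrays, longest for DKK1 at -2.74, and the 3 LEF1 probe sets lie left of both limits with the symbols on top of each other.

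Among the secreted inhibitors, DKK1 and NOTUM differed widely. DKK1 encodes Dickkopf-1, which binds the LRP5 and LRP6 co-receptors and keeps Wnt ligands from engaging them. Its single probe set read 8.68 with Padma 28 and 11.43 with EtOH. The log2 difference of -2.74 is a 6.70-fold lower value, or 14.9% of the EtOH level on the linear scale. With each gene taken by its brightest probe set, it was the lowest difference of all 19775 genes, and among all 54675 probe sets it was number 2 from the lowest. NOTUM encodes a secreted carboxylesterase that removes the palmitoleate group from Wnt ligands and so inactivates them. Its probe set read 11.17 with Padma 28 and 11.48 with EtOH, a difference of -0.31. This is 80.6% of the EtOH level, the mildest difference among the 8 target and feedback genes above background and number 1050 from the lowest of 10361 genes above background.

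The DKK1 gene lies on chromosome 10 (GRCh38.p14, 52314281 to 52317657). The 250 bases before its start site, chr10:52314031-52314280 on the plus strand of GRCh38.p14 as given by RefSeq, are shown because this gene had the lowest difference and because the window holds the TCF/LEF core motif. The motif was searched as CTTTGNN, where each N had to be A or T, on both strands. Capitals mark the matches, of which the first begins 95 bases and the second 76 bases before the start site.
DKK1: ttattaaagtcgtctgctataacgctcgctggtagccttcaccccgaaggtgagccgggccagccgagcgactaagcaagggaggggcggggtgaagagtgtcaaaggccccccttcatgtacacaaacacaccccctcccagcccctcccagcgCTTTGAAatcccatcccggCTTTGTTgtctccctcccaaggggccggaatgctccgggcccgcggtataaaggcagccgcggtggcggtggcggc
At least 1 match to the motif was found in 13.8% of 35116 RefSeq promoter windows that span 250 bases before and 50 bases after a start site. CTTTGAA occurred in 4.43% and CTTTGTT in 5.20% of them. A match describes the letters only, and binding of a factor was not measured.

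The receptor-level regulators LGR5, RNF43 and ZNRF3 form 1 module. R-spondins bind LGR5 and related receptors and thereby remove the transmembrane ubiquitin ligases RNF43 and ZNRF3, which otherwise clear Frizzled from the cell surface. LGR5, also a marker of intestinal stem cells and, in mice, of pericentral hepatocytes, was measured by 2 probe sets. The brighter read 9.73 with Padma 28 and 11.40 with EtOH, a difference of -1.66 or 3.17-fold lower. The dimmer read 6.58 with Padma 28 and 8.72 with EtOH, a difference of -2.14 or 4.41-fold lower. Both probe sets placed LGR5 past 2-fold, and the brighter put it at number 10 from the lowest of the genes above background.

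RNF43 read 9.09 with Padma 28 and 10.04 with EtOH, a difference of -0.96, which is 51.6% of the EtOH level. ZNRF3 read 9.54 with Padma 28 and 10.46 with EtOH, a difference of -0.92, which is 52.8% of the EtOH level. The 2 paralogous ligases thus had differences 0.03 apart, each from a single probe set, and ranked number 82 and number 90 from the lowest. For comparison, over 4912 genes with at least 2 probe sets above background on both arrays, the 2 brightest gave differences a median of 0.14 apart. This gap comes from the same 2 arrays and contains no spread between cultures. The genes lie on chromosome 12 (LGR5, 71439129 to 71586310), chromosome 17 (RNF43, 58352500 to 58417534) and chromosome 22 (ZNRF3, 28883572 to 29057488) of GRCh38.p14.

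AXIN2 and NKD1 act in the cytoplasm. AXIN2 is a scaffold of the destruction complex and a widely used readout of β-catenin activity. It was covered by 4 probe sets, all with a negative difference. The brightest read 9.80 with Padma 28 and 10.37 with EtOH, a difference of -0.57 or 1.48-fold lower. The next read 7.41 with Padma 28 and 8.22 with EtOH, a difference of -0.80 or 1.75-fold lower. Another, at 3.80 with Padma 28 and 4.28 with EtOH, was below the limit of the Padma 28 array, and the dimmest, at 2.78 with Padma 28 and 3.24 with EtOH, was below both limits, so no fold change is given for them. None of the AXIN2 probe sets passed 2-fold. The gene lies on chromosome 17 of GRCh38.p14 (65528563 to 65561648), as does NOTUM (81952507 to 81961187).

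NKD1 encodes Naked cuticle 1, which binds Dishevelled and dampens the signal, on chromosome 16 (50548396 to 50649249). Its 3 probe sets were all above background. The brightest read 10.08 with Padma 28 and 11.05 with EtOH, a difference of -0.97 or 1.96-fold lower, just within 2-fold. The second read 8.15 with Padma 28 and 9.41 with EtOH, a difference of -1.26 or 2.39-fold lower. The dimmest read 5.54 with Padma 28 and 6.17 with EtOH, a difference of -0.63 or 1.55-fold lower. The side of the 2-fold line on which NKD1 falls therefore depended on the probe set. It also passed 2-fold after centring along a loess curve, at -1.0030, and after repeated quantile normalization, at -1.0008.

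Among the transcription factors, SP5, a zinc finger protein of the SP family, read 11.34 with Padma 28 and 12.19 with EtOH. The difference of -0.86 corresponds to 55.2% of the EtOH level and to number 114 from the lowest of the genes above background. LEF1, a partner of β-catenin on DNA, was below background in all 3 probe sets, with the brightest at 2.86 with Padma 28 and 2.87 with EtOH. Its differences, from -0.05 to -0.01, were therefore not readable as a change. SP5 lies on chromosome 2 (170715337 to 170718078) and LEF1 on chromosome 4 (108047548 to 108168932).

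The window before the start site of SP5, chr2:170715087-170715336 on the plus strand of GRCh38.p14 from RefSeq, is shown beside that of DKK1 because it held the most matches among the genes with a window. Capitals mark the 3 matches. They begin 148, 109 and 84 bases before the start site, the first and the last as CTTTGAA on the opposite strand and the middle one as CTTTGAT.
SP5: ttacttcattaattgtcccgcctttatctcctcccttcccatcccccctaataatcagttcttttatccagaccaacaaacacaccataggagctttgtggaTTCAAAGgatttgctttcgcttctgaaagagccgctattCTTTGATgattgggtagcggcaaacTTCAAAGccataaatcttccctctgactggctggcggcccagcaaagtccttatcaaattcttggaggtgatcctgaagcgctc
Of the 10 genes, 5 had a window, with 7 windows in all. DKK1, SP5 and 1 window of TCF7 held at least 1 match. The other TCF7 window and those of RNF43 and LEF1 held none. The windows of TCF7 and LEF1, and 1 of RNF43, lay inside the spans of these genes.

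**Figure D2:**
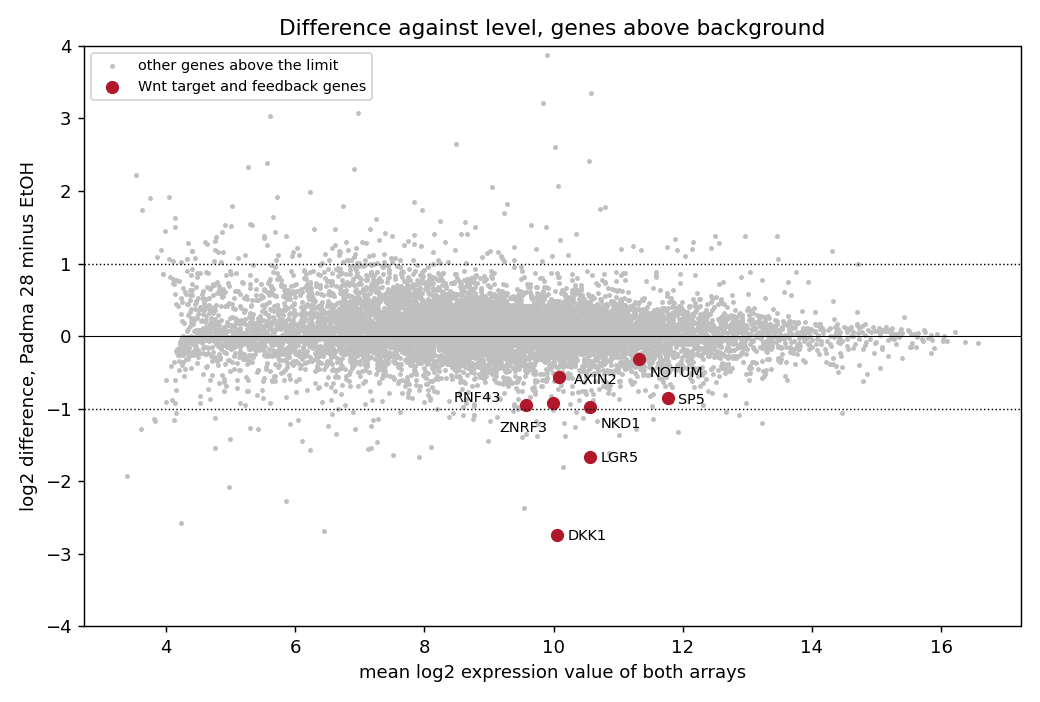
Log2 difference, Padma 28 minus EtOH (vertical axis), against the mean log2 expression value of both arrays (horizontal axis), where each grey point is a gene above background on at least 1 array and dotted lines mark 2-fold; 3 genes beyond 4 log2 units are outside the plot. The 8 Wnt target and feedback genes above background (red) all lie below 0, with DKK1 and LGR5 below the lower dotted line.

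In the plane of both log2 values, over 2 arrays only, the genes nearest to DKK1 were TUBB1, a β-tubulin, at a distance of 0.67 log2 units, the dicarboxylate transporter SLC13A3 at 0.78 and the histidine ammonia-lyase HAL at 0.98. Nearest to LGR5 were HEG1 at 0.38, the monooxygenase FMO5 at 0.41 and the semaphorin SEMA6A at 0.41. Levels of different probe sets also depend on how well they hybridise, so these distances describe the readings and nothing more.

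The remaining pathway genes, taken from 7 lists by role, had medians closer to 0. Of 118 measured genes, 61 were above background, and their median difference was -0.10. None of the 61 was more than 2-fold lower or higher, against 0.705% and 1.57% of all genes above background. More than 1.5-fold lower were 5 of the 61, against 2.90% of all genes above background. More than 1.5-fold higher was 1, against 6.49%. A difference below 0 was found for 42 of the 61, against 41.9% of all genes above background. The same share stands beside the counts of each list that follows. For counts of probe sets the share was 47.7%. None of the 17 measured Wnt ligands was above background on either array, and neither was any of the 4 R-spondins. With LGR6 also below background, LGR4, the paralogue of LGR5, was the only gene of the R-spondin and LGR list that could be read. Its brightest probe set was at 11.38 with Padma 28 and 11.98 with EtOH, a difference of -0.60, and another at -0.21.

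Of the Wnt receptors, 10 of 14 were above background, with a median of -0.16 and 7 below 0. Over the 19 receptor probe sets above background on both arrays, the median was -0.23, with 16 below 0. The Frizzled receptor FZD6 had the lowest difference of the list, at 8.19 with Padma 28 and 9.11 with EtOH, or -0.92. The co-receptor LRP5, to which Dickkopf-1 binds, read 11.24 with Padma 28 and 11.92 with EtOH, a difference of -0.68. The other co-receptor, LRP6, had differences of -0.08, -0.23 and -0.30, of which the first belongs to the brightest probe set. FZD1 had the highest difference of the list, 0.55, with its other probe sets below background.

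Of 16 other secreted and membrane antagonists only KREMEN1, a Dickkopf receptor, at 0.13, and DKK2, at -0.08 and below the limit with Padma 28, were above background on at least 1 array. DKK3, DKK4, WIF1 and the SFRP genes, which encode further Wnt antagonists, were not. DKK1 was therefore the only one of the Dickkopf genes with a reading above background on both arrays.

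The core of the pathway differed little in its brightest probe sets. CTNNB1, the gene of β-catenin, read 11.68 with Padma 28 and 11.76 with EtOH, a difference of -0.08, while a dimmer probe set was at -0.41. Of 19 genes of the destruction complex and its transducers above background, 12 were below 0, with a median of -0.08 and a range from -0.33 to 0.30. The ends of this range were TNKS2, a tankyrase that marks Axin for degradation, and CSNK1A1, the kinase that primes β-catenin. Of all 44 probe sets of these genes above background on both arrays, 25 were below 0, against 47.7% of all probe sets above background. The median of the 44 was -0.03. They ran from -0.75 for a dimmer probe set of TNKS2 to 0.87 for a dimmer one of BTRC, which recognises marked β-catenin and was at -0.25 on its brightest. A dimmer probe set of the kinase GSK3B was at 0.59 and its brightest at 0.10. The probe sets of CSNK1A1 above background ran from -0.59 to 0.37. AXIN1, the constitutive paralogue of AXIN2, was at -0.13.

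Of 13 TCF partners above background, 8 were below 0, with a median of -0.14. Over their 30 probe sets above background on both arrays, the median was -0.26, with 24 below 0. TCF7L2, a TCF factor of liver and gut that pairs with β-catenin, read 11.53 with Padma 28 and 11.94 with EtOH on its brightest probe set, a difference of -0.41. All 7 of its probe sets were above background and below 0, and 5 of them lay between -0.78 and -0.71. The co-repressor TLE1 differed by -0.40 on the brightest of its probe sets and between -0.74 and -0.67 on the other 3 above background. For both genes the brightest probe set gave a milder difference than most of the others.

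Other reported β-catenin targets had a median closer to 0 than the feedback genes. Of 16 above background, 13 were below 0, with a median of -0.16. Over their 34 probe sets above background on both arrays, the median was -0.22, with 28 below 0. TNFRSF19, a receptor of the tumour necrosis factor family, had the lowest difference at -0.78, with its other 2 probe sets at -0.83 and -0.74. BMP4 was at -0.60 and the cyclin CCND1 at -0.44 and -0.25. MYC, at 13.29 with Padma 28 and 13.22 with EtOH, differed by 0.06. GLUL, the pericentral glutamine synthetase, differed by -0.02 on its brightest probe set and by 0.18 and 0.14 on the other 2 above background. SLC1A2 was lower, with -0.23 for the brightest of its probe sets above background and -0.50, -0.63 and -0.84 for the others. RHBG differed by -0.36 and OAT by 0.10. FOSL1, an AP-1 subunit, had the highest difference, 0.93, at 7.15 with Padma 28 and 6.22 with EtOH.

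**Figure D3:**
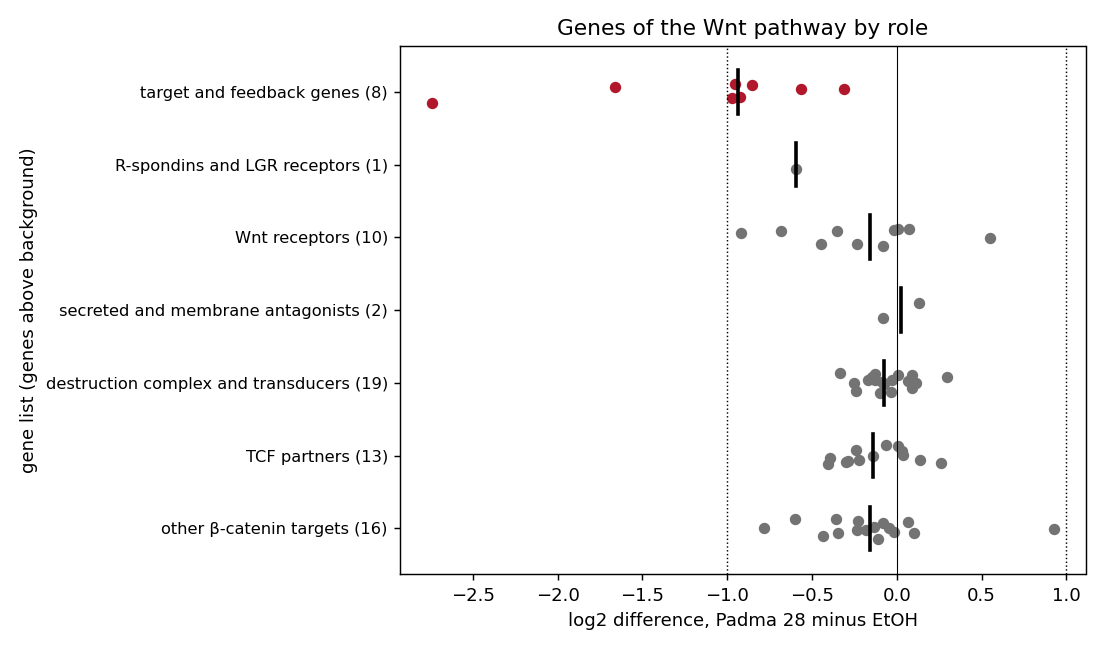
Log2 difference, Padma 28 minus EtOH (horizontal axis), of the genes of each list above background on at least 1 array, with their number in brackets; points stand for genes, black bars for the median of a list, and the dotted lines for 2-fold. The target and feedback genes (red) have a median of -0.94 by the brightest probe set of each gene. On the same basis the medians of the Wnt receptors, destruction complex, TCF partners and other targets lie between -0.16 and -0.08. The R-spondin and LGR list holds 1 gene, LGR4, at -0.60, and the antagonists have a median of 0.02.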

How the data were processed

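For each treatment, cells of 3 cultures were combined before RNA extraction, and 1 Affymetrix array was hybridised. The authors derived log2 expression values with GCRMA, which corrects background by probe sequence, quantile-normalizes and summarizes probe sets, and the deposited log2 values were used unchanged. Versions given in the submitters' processing notes are 2.28.0 for GCRMA and 2.15.1 for R. Because GCRMA pulls dim probe sets together, small differences near background carry little information. Probe sets were named from the platform annotation, with symbols updated through the RefSeq table of GRCh38.p14. Of the probe sets, 41097 had 1 gene, 1801 several and 11777 none.

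Differences were taken without a test, because 1 array per treatment gives no error, and the number of arrays limits the precision. All genes of interest were named with every probe set. Of each pathway list, the 2 genes with the largest differences above background were named, as were the 3 genes nearest to DKK1 and LGR5. Further list genes, such as CTNNB1, MYC and CCND1, were named after their values were seen. Members and lists were chosen with earlier results of these data known. Alternatives covered probe set choice, offsets, centring, normalization, the background limit and the fold threshold. The steps were run on simulated data in which changes larger than 2-fold were added to some genes. This run checked the code only and held no spread between cultures. Python 3.11.15, pandas 2.3.3 and statsmodels 0.14.6 were used.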

Additional observations from a re-analysis of the deposited data

How the results depend on the processing

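No paired analysis was possible because each treatment had 1 array. Under 9 alternatives each, DKK1 ranged from -2.77 to -2.57 and LGR5 from -2.14 to -1.59, and both stayed more than 2-fold lower. RNF43, ZNRF3, SP5, AXIN2 and NOTUM stayed negative and within 2-fold under all 9, and NKD1 ranged from -1.26 to -0.93. LEF1, below background, ranged from -0.05 to 0.04 under 8 alternatives, since none of its probe sets was left without the _x_at and _s_at types. A shift smaller than 0.14, the median gap between 2 probe sets of a gene, was counted as no change. Larger shifts were those of LGR5 to -2.14, NKD1 to -1.26 and AXIN2 to -0.80 with the largest probe set, of LGR5 to -1.90 with the median over probe sets and of DKK1 to -2.57 with 64 added to the linear values. At 1.5-fold, chosen after the data were seen, 6 of the target and feedback genes were lower, and in the pathway lists 5 genes were lower and 1 was higher. With the largest probe set, 1 list gene, the casein kinase CSNK1G1, was more than 2-fold higher on a dim probe set that was below background with EtOH. Among all genes, 173 passed 2-fold as higher and 76 as lower. These counts were 264 and 153 with the largest probe set, and 713 and 309 at 1.5-fold. With 64 added to the linear values they were 64 and 34, while 97 were higher with 16 added and 114 with the median over probe sets. The number of target and feedback genes above background was 8 with the limit set 1 or 3 log2 units over the most frequent value.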
